A study of Mus musculus with 9 samples.

Results

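Sox genes encode transcription factors that bind DNA through an HMG box of the kind first described in Sry. The 10 members examined here were Sox4, Sox5, Sox6, Sox7, Sox8, Sox9, Sox10, Sox11, Sox17 and Sox18, chosen by name from the 19935 genes that had a probe set with a single symbol on the array. Where a gene has several such probe sets the brightest on average would be used, but each of these had only 1. RNA came from adult mouse hearts (mixed background of C57BL/6), of which the septum between the ventricles and the right ventricle were taken. The 4 Ezh2-deficient hearts had the genotype Ezh2f/f;Mef2cAHF::Cre, and the 5 wild-type hearts carried Ezh2f/f without Cre. Titles of the wild-type samples read f/wt, which does not match their genotype field. Cre under the anterior heart field enhancer of Mef2c acts in embryonic progenitors of the right ventricle, septum and outflow tract, so cells of other origin in the tissue kept Ezh2. Cre was present in every Ezh2-deficient heart and in no wild-type heart, so loss of Ezh2 and presence of Cre cannot be told apart.

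Ezh2 is the methyltransferase of Polycomb repressive complex 2, which places a repressive methyl mark on histone H3 and is known for holding developmental transcription factor genes silent, often at starts rich in CpG. Sox factors fall into lettered groups with related HMG boxes. SoxE (Sox8, Sox9, Sox10) acts in cartilage, heart valves and the neural crest, and SoxD (Sox5, Sox6) works beside Sox9 in cartilage and in muscle fibre type. SoxC (Sox4, Sox11) acts in neural and mesenchymal progenitors and in the outflow tract, and SoxF (Sox7, Sox17, Sox18) in blood and lymphatic vessels. In an adult ventricle most of these genes are therefore known from cells other than cardiomyocytes. In bulk tissue, fewer cells of a type and less RNA per cell cannot be told apart.

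The table held log2 values for 28815 probe sets, with array medians between 7.19 and 7.245 and Pearson's r between arrays of 0.9897 to 0.9973 over probe sets. Ezh2-deficient heart 3 lay apart on the second principal component (score 30.2, others -14.4 to 8.64), and wild-type hearts 4 and 5 on the first (26.1 and 24.1, others -13.9 to 3.84). By Xist and 3 Y-linked genes, 2 of 4 Ezh2-deficient and 1 of 5 wild-type hearts came from females. Titles carry a letter e (2 Ezh2-deficient and 2 wild-type hearts) or x (2 and 3 hearts), whose meaning the labels do not give. The targeted gene Ezh2 read 8.88 ± 0.11 (SD, n = 4) in Ezh2-deficient and 8.73 ± 0.12 (SD, n = 5) in wild-type hearts (difference 0.15, SE 0.07, limma adjusted p = 0.485). That probe set did not separate the genotypes, so it does not check the labels, and directions are those between the labelled groups.

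No Sox gene among the 10 differed between the genotypes past the threshold. By limma, fitted over all 28815 probe sets with Benjamini-Hochberg adjustment, 0 of 10 had an adjusted p under 0.05, with adjusted p from 0.291 to 0.997. Of all probe sets 0.0347% passed, 0.0243% higher and 0.0104% lower. At an unadjusted p under 0.05, 2 of the 10 were higher in Ezh2-deficient hearts, Sox9 and Sox7, and 0 were lower, against 5.23% of all probe sets higher and 5.45% lower. In 5 of the 10 genes the mean was higher in Ezh2-deficient hearts and in 5 it was lower, while 47.1% of all probe sets had a higher mean. The median difference over the 10 was 0.02 on the log2 scale, beside a median of -0.006 over all probe sets. At 0 of the 10 genes did the groups stand wholly apart, which they did at 3.71% of all probe sets. The bound furthest from 0 among the 95% intervals of the 10 differences was -0.50 on the log2 scale (Sox4), and 8 intervals included 0. At the median standard error of the table (0.0674) a difference of 0.53 was needed to pass. More was needed where the SE was larger, as at Sox4 (0.18), Sox17 (0.13), Sox18 (0.12), Sox7 (0.09) and Sox9 (0.08).

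**Figure D1:**
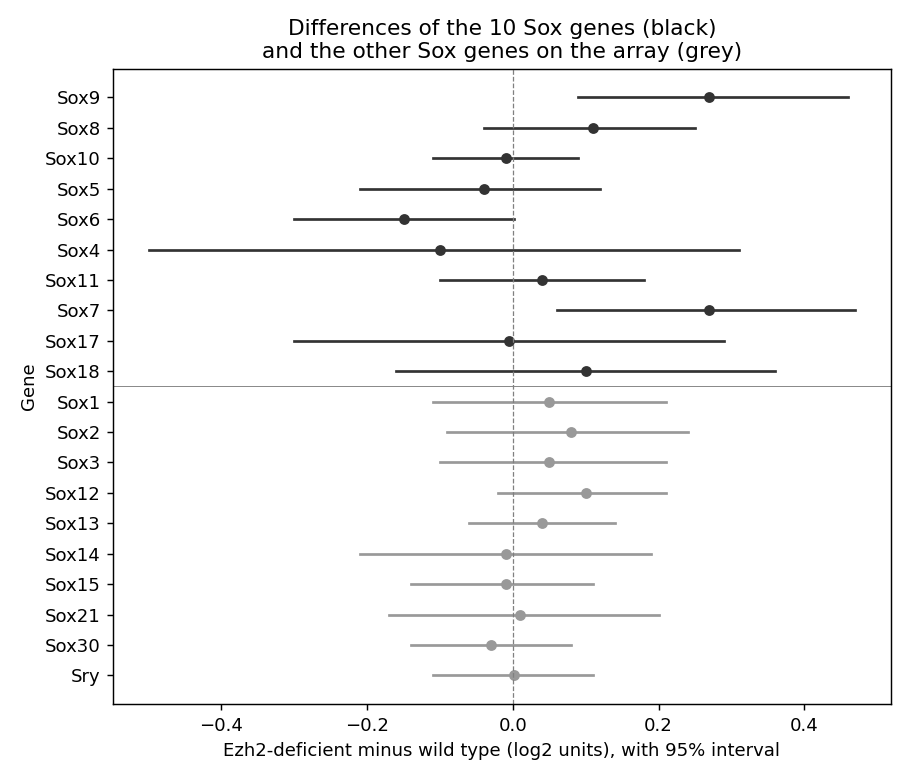
Difference in log2 expression, Ezh2-deficient (4 hearts) minus wild type (5 hearts), for the 10 Sox genes (black) and 10 other Sox genes on the array (grey). Points are limma estimates and lines their 95% intervals. The intervals of Sox9 (0.09 to 0.46) and Sox7 (0.06 to 0.47) lie above 0, and every other interval includes it.

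**Figure D2:**
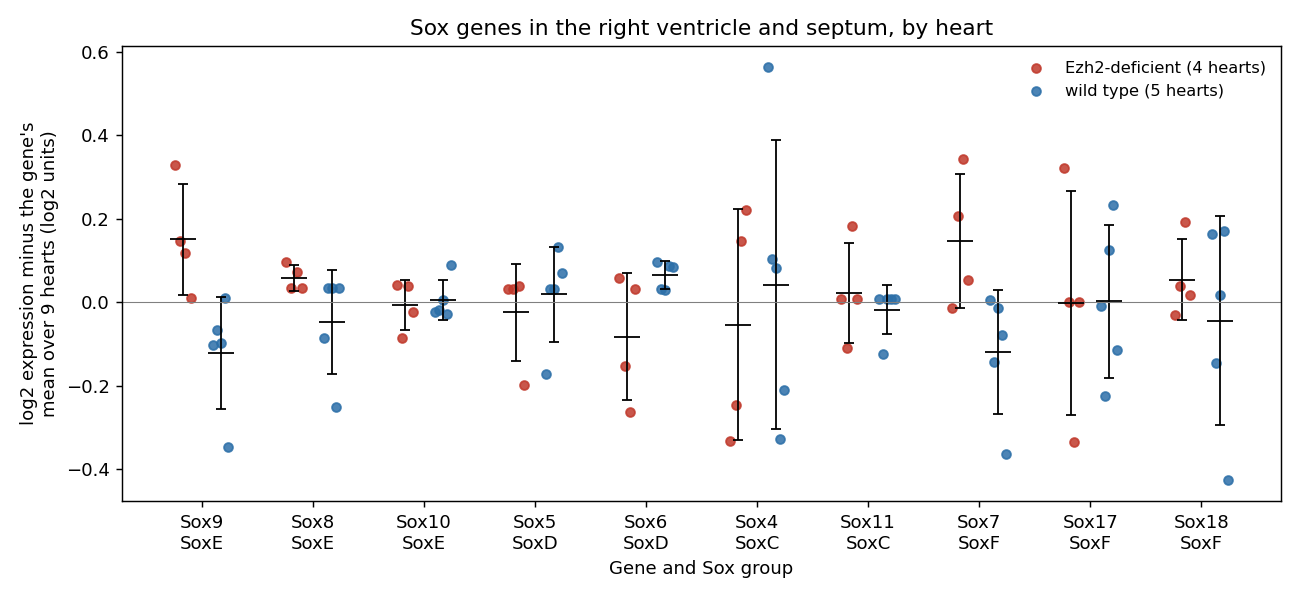
Log2 expression of each Sox gene in each heart, as the deviation from that gene's mean over 9 hearts, with the Ezh2-deficient hearts in red on the left and the wild-type hearts in blue on the right. Bars are the group mean ± SD. Sox9 and Sox7 show the clearest shift between the groups, Sox4 spreads most and Sox10 least.

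What a log2 value says about the presence of a transcript differs from probe set to probe set. Sry, the Y-linked founder of the family, read 8.237 to 8.381 in the 3 hearts of females, which lack the gene, and 8.213 to 8.357 in the 6 hearts of males. These values lie above every array median, and 3 of them come from hearts that cannot express Sry. The values of the 10 Sox genes are therefore compared only between hearts, gene by gene, and not between genes.

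Start regions of the members, from 250 bases before to 50 after a gene start, were taken from RefSeq (GRCm38.p6). Shown are 3 that differ in CpG content, a feature often used to describe Polycomb targets. The table held windows for 5 of the 10 genes, namely Sox4, Sox5, Sox6, Sox8 and Sox11, and Sox7, Sox9, Sox10, Sox17 and Sox18 had no entry. Each is written 5′ to 3′ on the minus strand, where these genes lie, with CpG pairs in capitals.
Sox11, chr12:27342669-27342968: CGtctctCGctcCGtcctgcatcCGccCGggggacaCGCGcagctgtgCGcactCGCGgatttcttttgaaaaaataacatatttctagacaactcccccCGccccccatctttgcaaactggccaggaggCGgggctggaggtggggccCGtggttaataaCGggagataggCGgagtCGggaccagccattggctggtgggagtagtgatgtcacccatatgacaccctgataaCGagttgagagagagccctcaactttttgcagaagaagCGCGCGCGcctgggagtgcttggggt
Sox6, first start, chr7:116038695-116038994: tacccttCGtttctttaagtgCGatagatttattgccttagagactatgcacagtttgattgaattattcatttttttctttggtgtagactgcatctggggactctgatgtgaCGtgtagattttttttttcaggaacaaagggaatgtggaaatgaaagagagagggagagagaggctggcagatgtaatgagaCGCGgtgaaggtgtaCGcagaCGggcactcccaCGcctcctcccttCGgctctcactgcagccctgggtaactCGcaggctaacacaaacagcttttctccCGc
Sox5, chr6:143947057-143947356: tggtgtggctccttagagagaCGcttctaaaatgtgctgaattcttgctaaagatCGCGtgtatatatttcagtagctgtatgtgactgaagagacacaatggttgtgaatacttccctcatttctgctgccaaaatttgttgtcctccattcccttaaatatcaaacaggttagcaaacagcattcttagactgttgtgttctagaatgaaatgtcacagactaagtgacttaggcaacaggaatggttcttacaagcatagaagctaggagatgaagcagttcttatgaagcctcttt
The Sox11 window held 21 CpG pairs, more than 75.2% of the 32851 windows in the table, and that of Sox8 also held 21. Sox4 had 12, and the single Sox5 window had 3, against a median of 7 over all windows. The 6 listed starts of Sox6 held between 2 and 13, with 11 at the start shown. The motif AACAAT, a core that Sox factors are known to bind, was searched on both strands (ATTGTT on the other), and 10.7% of all windows held it. Among the 10 windows of these genes 1 did, at an inner start of Sox6, where the motif lies once on each strand within chr7:115824924-115824952 (motif in capitals).
Sox6, inner start: tctttcAACAATgcttgATTGTTttcaca
A match is a description of the letters and not a measured binding site. Sox11 and Sox8, the members with 21 CpG pairs, differed between the genotypes by 0.04 and 0.11 on the log2 scale, and neither passed. Both probe sets gave the same value on many arrays, Sox11 on 6 and Sox8 on 5. Sox11 also averaged 5.67, below the limit of 6.16 used when the dimmest 30% of probe sets were left out. Whether the differences follow CpG content was not tested, as Sox7, Sox9, Sox10, Sox17 and Sox18 had no window.

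The SoxE genes held the Sox gene with the lowest p. Sox9, which directs cartilage formation and is needed in valve and cushion mesenchyme, read 8.175, 7.991, 7.964 and 7.855 in Ezh2-deficient hearts, against 7.742, 7.778, 7.749, 7.855 and 7.498 in wild-type hearts. The lowest Ezh2-deficient heart equalled the highest wild-type heart, and the other hearts kept apart by group. Its difference was 0.27 (SE 0.08), a 1.21-fold higher level with a 95% interval of 1.06 to 1.37, and did not pass (limma unadjusted p = 0.00829, adjusted p = 0.291). Over the table, 819 probe sets (2.84%) had a smaller p. By title letter the difference was 0.26 for e and 0.28 for x (limma within each letter, unadjusted p = 0.124 and 0.06). The test of the difference between letters had an SE of 0.18 and an unadjusted p of 0.906. With so few hearts per letter it cannot show that the shifts are equal. Leaving out 1 heart at a time gave 0.21 to 0.32, with an unadjusted p under 0.05 in 9 of 9 fits.

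Sox8, a close relative of Sox9 with overlapping roles, read 7.586, 7.524, 7.562 and 7.524 in Ezh2-deficient hearts, against 7.406, 7.524, 7.524, 7.239 and 7.524 in wild-type hearts. The value 7.524 occurred on 5 of 9 arrays, and 2 wild-type hearts lay below it. The difference of 0.11 (SE 0.06, adjusted p = 0.592) had an interval of -0.04 to 0.25. Without wild-type heart 4, the lowest, it was 0.05. By sex, a split chosen after seeing the data, it was 0.03 in males and 0.33 in females, where the wild-type group is heart 4 alone (unadjusted p = 0.0187, adjusted p = 0.532). Sox10, the regulator of Schwann cells and other neural crest glia, read 7.934, 7.806, 7.93 and 7.868 in Ezh2-deficient hearts, against 7.869, 7.874, 7.898, 7.863 and 7.98 in wild-type hearts. The groups overlapped over most of their range, and the range over all hearts, 0.17, was wider than that of only 10.1% of probe sets. The difference was -0.01 (SE 0.04, adjusted p = 0.951), and the interval of the ratio, 0.92- to 1.06-fold, was the narrowest among the 10 genes.

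Of the SoxD genes, which lack an activation domain of their own, Sox6 was the member with the lowest p on the lower side. Sox6, known in mouse skeletal muscle as a repressor of slow fibre genes, read 8.648, 8.437, 8.327 and 8.621 in Ezh2-deficient hearts, against 8.687, 8.621, 8.62, 8.677 and 8.674 in wild-type hearts. Wild-type hearts were tightly grouped (SD 0.03), Ezh2-deficient hearts 1 and 4 lay within their range, and hearts 2 and 3 lay below it. The difference was -0.15 (SE 0.07, 95% interval -0.30 to 0.0022, unadjusted p = 0.0529, adjusted p = 0.475). With the title letter as a block it was -0.16 (SE 0.06, unadjusted p = 0.0256, adjusted p = 0.328). Hearts 2 and 3 are those with the letter x, where the difference was -0.28, against -0.02 in letter e. The test of that contrast between letters gave an unadjusted p of 0.0206 and an adjusted p of 0.732, and 6.12% of all probe sets reached an unadjusted p under 0.05 in it. Without Ezh2-deficient heart 3, whose red blood cell markers (4 of 9 listed were measured) averaged 9.10 against 7.66 to 7.77 in the other Ezh2-deficient hearts and 7.28 to 8.01 in wild-type hearts, the difference was -0.09. The part of blood in that heart's value was not tested.

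Sox5, the SoxD partner of Sox6 in cartilage, read 7.135, 7.135, 7.143 and 6.905 in Ezh2-deficient hearts, against 6.933, 7.135, 7.135, 7.235 and 7.174 in wild-type hearts. The value 7.135 stood on 4 arrays, and each group had 1 heart near 6.9. The difference was -0.04 (SE 0.07, adjusted p = 0.869, 95% interval -0.21 to 0.12). Sox6os, a transcript antisense to Sox6 with a probe set of its own, differed by -0.07 (SE 0.06, adjusted p = 0.709); the labels do not say whether the probes tell the strands apart.

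Neither SoxC gene passed, and the groups overlapped at both. Sox4, which acts in outflow tract formation and in many progenitor cells, read 8.419, 8.505, 8.898 and 8.972 in Ezh2-deficient hearts, against 9.316, 8.855, 8.834, 8.424 and 8.542 in wild-type hearts. Both groups ran from about the same low value upwards, and the highest reading was wild-type heart 1. The range over hearts, 0.90, exceeded that of 95.2% of probe sets. The difference was -0.10 (SE 0.18, adjusted p = 0.886), and its interval of 0.70- to 1.24-fold was the widest among the 10. The title letters gave -0.39 (e) and 0.10 (x) (test between letters, unadjusted p = 0.159). Without wild-type heart 1 it was 0.03.

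Sox11, the neural and mesenchymal progenitor factor closest to Sox4, read 5.677, 5.558, 5.85 and 5.677 in Ezh2-deficient hearts, against 5.677, 5.545, 5.677, 5.677 and 5.677 in wild-type hearts. The value 5.677 was repeated on 6 of 9 arrays, which happened at 2.43% of probe sets. Only 3 hearts departed from it, Ezh2-deficient hearts 2 and 3 and wild-type heart 2. The difference was 0.04 (SE 0.06, adjusted p = 0.851, interval -0.10 to 0.18). A repeated value on at least 5 arrays, as for Sox8, was found at 7.12% of probe sets, and on at least 4, as for Sox5, at 17.6%.

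None of the 3 SoxF genes of vessel endothelium passed, and their patterns over the hearts differed. Sox7, a regulator of endothelial development, read 8.65, 8.871, 9.008 and 8.719 in Ezh2-deficient hearts, against 8.671, 8.522, 8.65, 8.587 and 8.302 in wild-type hearts. Ezh2-deficient hearts 2, 3 and 4 lay above every wild-type heart and heart 1 within their range. The difference was 0.27 (SE 0.09), a 1.20-fold higher level with an interval of 1.04 to 1.39, and did not pass (unadjusted p = 0.0173, adjusted p = 0.353). By title letter it was 0.09 (e) and 0.43 (x) (test between letters, unadjusted p = 0.0687, adjusted p = 0.732). Without Ezh2-deficient heart 3 or wild-type heart 5 it was 0.20, and without wild-type hearts 4 and 5 and Ezh2-deficient heart 3, an alternative chosen after seeing the data, it was 0.13 (unadjusted p = 0.112).

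Sox17, known for arterial endothelium and endoderm, read 7.974, 7.651, 7.317 and 7.653 in Ezh2-deficient hearts, against 7.642, 7.427, 7.776, 7.885 and 7.537 in wild-type hearts. The highest and the lowest reading were both Ezh2-deficient, hearts 1 and 3. The difference was -0.0047 (SE 0.13, adjusted p = 0.997), with an interval of 0.81- to 1.22-fold. Hearts with letter e gave 0.28 and those with letter x gave -0.25, and the test between letters gave an unadjusted p of 0.0436 and an adjusted p of 0.732. Sox18, which starts lymphatic development in the mouse, read 8.917, 8.988, 9.141 and 8.966 in Ezh2-deficient hearts, against 9.113, 8.804, 8.966, 9.119 and 8.522 in wild-type hearts. The groups overlapped except for wild-type hearts 2 and 5, which lay below. The difference was 0.10 (SE 0.12, adjusted p = 0.801), and without wild-type heart 5 it was 0.0025.

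**Figure D3:**
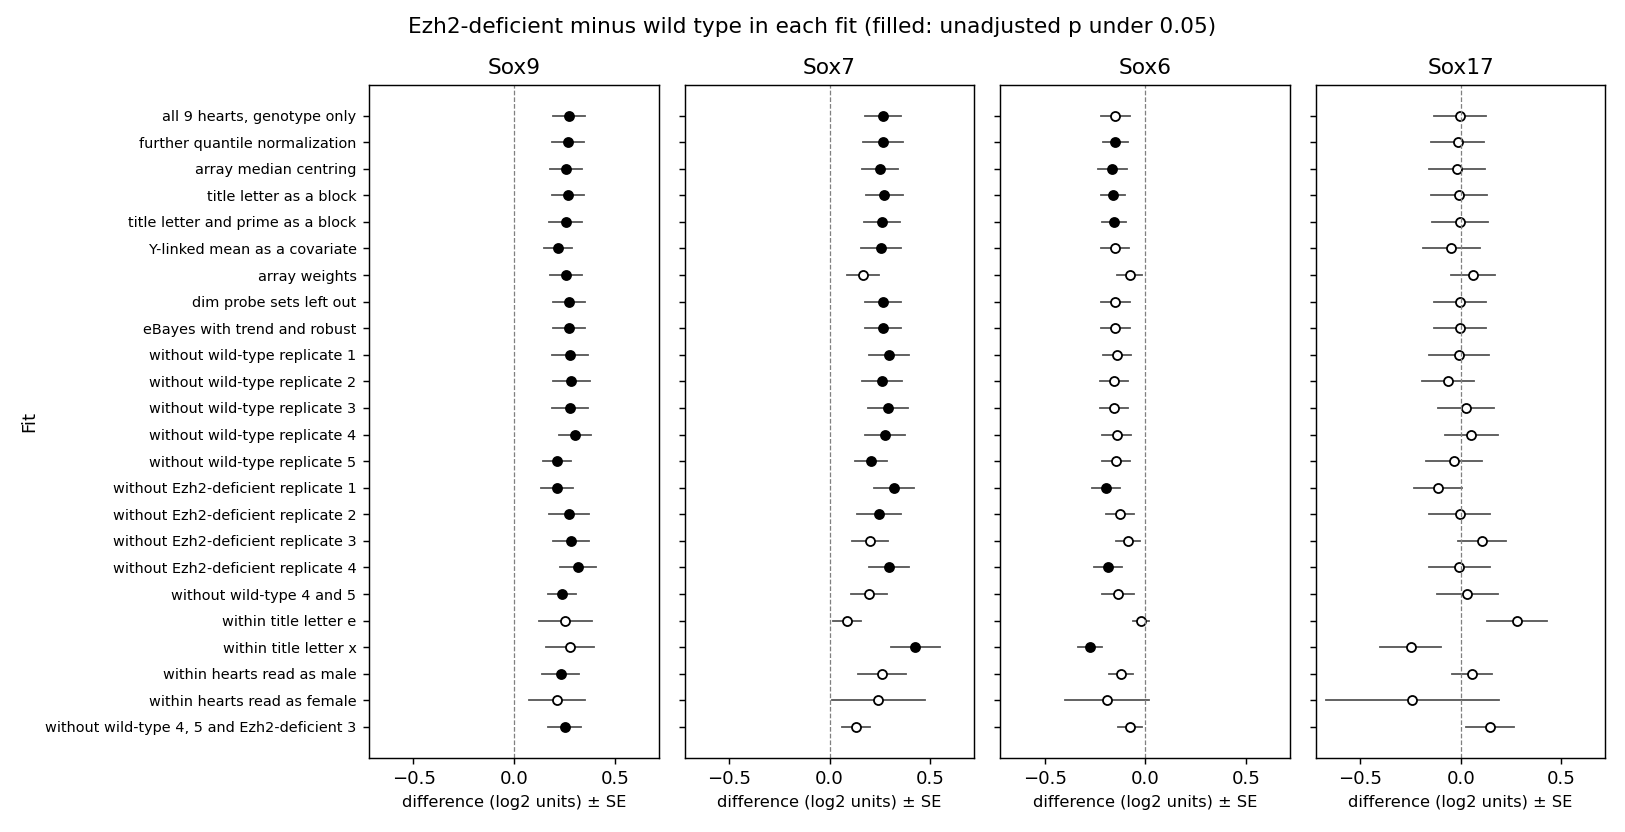
Ezh2-deficient minus wild type in log2 units (points) ± SE (lines) for Sox9, Sox7, Sox6 and Sox17 in the fit of all 9 hearts and in 23 alternatives. Filled points have an unadjusted p under 0.05. Sox9 stayed between 0.21 and 0.32, Sox7 ranged from 0.09 to 0.43, Sox6 from -0.28 to -0.02, and Sox17 lay on either side of 0.

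Markers of the cell types that commonly express these genes were compared between the same hearts. The 16 endothelial markers averaged 10.15 to 10.26 in Ezh2-deficient hearts and 9.66 to 10.19 in wild-type hearts on the log2 scale. All 16 had a higher mean in Ezh2-deficient hearts, 0 passed and 5 were higher at an unadjusted p under 0.05. Over all probe sets 47.1% had a higher mean and 5.23% were higher at that level, and the same shares stand beside the lists that follow. Wild-type heart 5 had the lowest endothelial mean and also the lowest Sox7 and Sox18. Wild-type heart 4, with the second lowest endothelial mean (9.91), had the highest wild-type Sox18, and Ezh2-deficient heart 3 (10.24) had the lowest Sox17. The 14 fibroblast markers averaged 10.67 to 10.94 in Ezh2-deficient hearts and 10.02 to 10.59 in wild-type hearts, with 14 of 14 higher in mean, 0 past the threshold and 9 higher at an unadjusted p under 0.05. The 8 valve interstitial markers averaged 8.68 to 8.94 in Ezh2-deficient hearts and 8.27 to 8.52 in wild-type hearts. Of these, 7 of 8 were higher in mean, 0 were past the threshold and 4 were higher at an unadjusted p under 0.05. The lowest p in this list belonged to Postn, Vcan and Cthrc1 (differences 1.37, 0.88 and 0.23). Which cells carried these transcripts was not measured. The averages of the fibroblast and valve interstitial lists did not overlap between the groups. Sox9 was lowest in wild-type heart 5, as the fibroblast mean was, while the valve mean was lowest in wild-type heart 3 (8.27). Sox9 was highest in Ezh2-deficient heart 1 (8.175), but the fibroblast mean was highest in Ezh2-deficient heart 3 (10.94). The part of cell composition in the Sox7, Sox9 and Sox18 values was not tested.

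**Figure D4:**
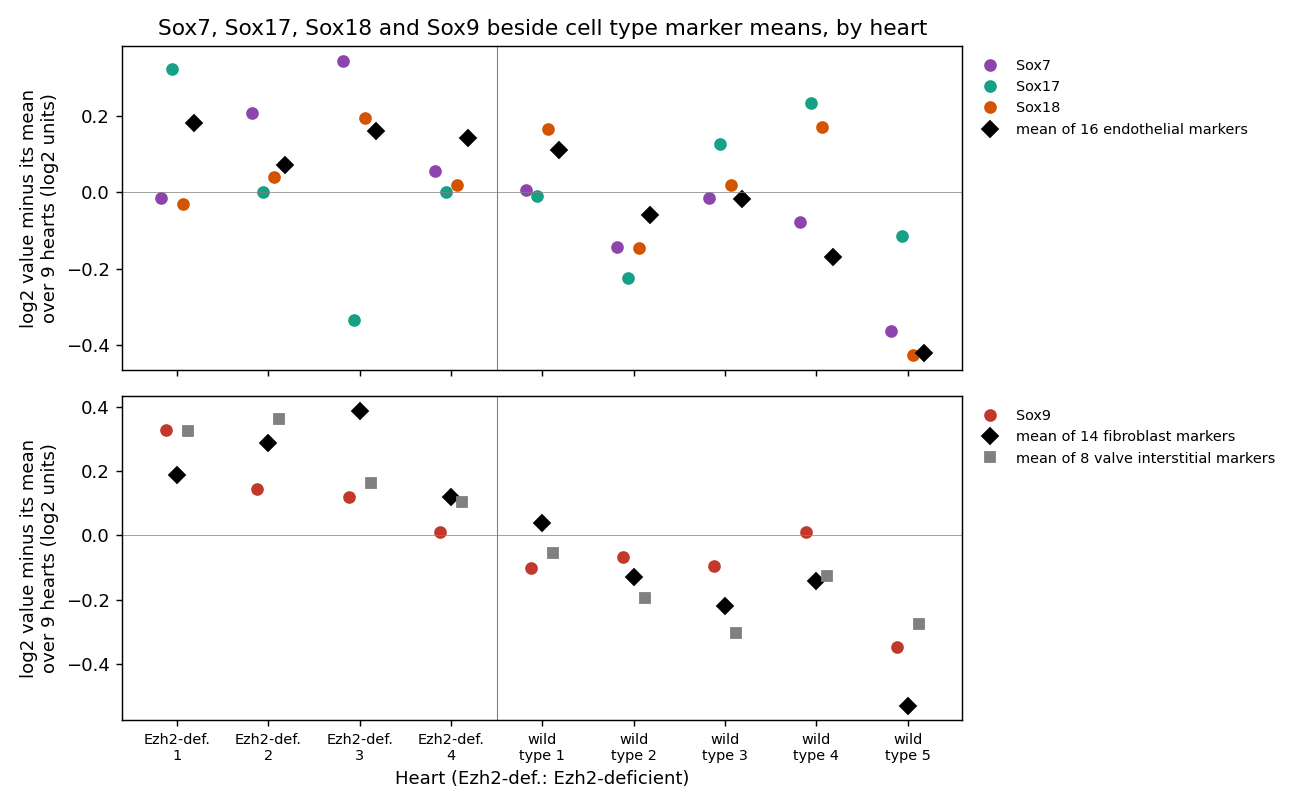
Log2 values of Sox7, Sox17 and Sox18 with the mean of 16 endothelial markers (top), and of Sox9 with the means of 14 fibroblast and 8 valve interstitial markers (bottom), each as the deviation from its mean over 9 hearts. Hearts are in columns, Ezh2-deficient left of wild type. Wild-type heart 5 is lowest for Sox7, Sox18, Sox9 and for the endothelial and fibroblast means, while Sox17 is lowest in Ezh2-deficient heart 3.

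No gene of the other marker lists passed. The 9 measured glial markers averaged 7.29 to 7.39 in Ezh2-deficient hearts and 7.19 to 7.24 in wild-type hearts. Of these 9, Ncam1, an adhesion molecule also present in stressed cardiomyocytes, differed by 0.57 (SE 0.08, adjusted p = 0.0573) and the other 8 had an unadjusted p above 0.05. Sox10, the glial Sox factor, differed by -0.01 in the same hearts. Smooth muscle and pericyte markers averaged 9.59 to 9.82 in Ezh2-deficient and 9.32 to 9.69 in wild-type hearts, with 1 of 10 lower and 0 higher at an unadjusted p under 0.05. Macrophage markers averaged 8.95 to 9.28 in Ezh2-deficient and 8.64 to 9.08 in wild-type hearts, with 0 of 10 at that level. Lymphatic markers averaged 8.16 to 8.27 in Ezh2-deficient and 8.01 to 8.29 in wild-type hearts, with 2 of 6 measured higher at that level. Cardiomyocyte markers averaged 13.38 to 13.67 in Ezh2-deficient and 13.51 to 13.61 in wild-type hearts, and Ezh2-deficient heart 3 was lowest. At an unadjusted p under 0.05, 1 of these 12 was higher and 1 lower. In mean, 10 of the 12 were lower and 2 higher, with a median difference of -0.06. Of the other lists, 7 of 9 glial, 8 of 10 smooth muscle and pericyte, 9 of 10 macrophage and 4 of 6 lymphatic markers were higher in mean.

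No Sox gene outside the 10 members passed either. All 10 listed had a probe set (Sox1, Sox2, Sox3, Sox12, Sox13, Sox14, Sox15, Sox21, Sox30 and Sry), and limma called 0 of them; at an unadjusted p under 0.05 it called 0 as well. Their differences ran from -0.03 to 0.10. The lowest p belonged to Sox12, the third SoxC gene, which read 7.33 ± 0.10 (SD, n = 4) in Ezh2-deficient and 7.24 ± 0.04 (SD, n = 5) in wild-type hearts (difference 0.10, SE 0.05, limma adjusted p = 0.558). Sox1, a neural factor, differed by 0.05 (SE 0.07, adjusted p = 0.832).

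Genes known to act downstream of Sox factors, or beside them, were counted by list, and the lists were chosen with earlier results of these data known. Of 16 cartilage genes that Sox9 drives with Sox5 and Sox6, 0 passed and 1 was higher at an unadjusted p under 0.05, with a median difference of 0.05. That gene was Comp, a cartilage and tendon matrix protein, which read 7.388, 7.957, 7.647 and 7.852 in Ezh2-deficient hearts, against 7.247, 7.168, 7.081, 7.155 and 7.358 in wild-type hearts (difference 0.51, SE 0.11, adjusted p = 0.141). The groups did not overlap at Comp, as at 3.71% of all probe sets. Acan, the aggrecan core protein, and Col2a1, the main cartilage collagen, differed by 0.10 each (SE 0.05 and 0.06), without reaching an unadjusted p under 0.05. Acan averaged 6.05, below the limit of 6.16 for dim probe sets, and read 6.055 on 5 of 9 arrays. Its difference was 0.00 in letter e and 0.18 in letter x.

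A list of 14 held slow muscle genes, a class that Sox6 represses in mouse skeletal muscle. It also held the regulators Nfatc1, Nfatc3, Prox1, Hdac11 and Tead1. Of the 14, 1 rose and 13 did not pass. Tnnt1, slow skeletal troponin T, read 10.261, 10.15, 10.096 and 10.395 in Ezh2-deficient hearts, against 8.373, 8.173, 8.496, 8.152 and 8.293 in wild-type hearts (difference 1.93, SE 0.09, adjusted p = 2.33e-05). All 4 Ezh2-deficient hearts lay above all 5 wild-type hearts. By title letter the difference of Tnnt1 was 2.05 (e) and 1.81 (x). Whether Tnnt1 followed Sox6 was not tested. Myh7, which encodes slow myosin, had a difference of 0.83 (SE 0.26, adjusted p = 0.301), and its relative Myh7b one of -0.43 (SE 0.11, adjusted p = 0.222). The groups overlapped at Myh7 and did not overlap at Myh7b. Over the list 3 were higher and 2 lower at an unadjusted p under 0.05, and the median difference was 0.0069.

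The list of 20 SoxF targets and partners had a median difference of 0.16, with 18 higher in mean, 6 higher at an unadjusted p under 0.05, 0 lower and 0 past the threshold. Without wild-type hearts 4 and 5 the median was 0.06, with 4 higher and 1 lower, and without these and Ezh2-deficient heart 3 it was 0.09. Flt4, the lymphatic growth factor receptor, read 7.74 in Ezh2-deficient and 7.51 in wild-type hearts (difference 0.24, SE 0.05, adjusted p = 0.148). Pdpn, a lymphatic surface protein, differed by 0.23 (SE 0.06, adjusted p = 0.246). Gata2, an endothelial and blood transcription factor, differed by 0.14 (SE 0.04, adjusted p = 0.293). The groups did not overlap at Flt4, Pdpn and Gata2, as at 3.71% of all probe sets. Prox1, a lymphatic marker in the same list, went the other way, with a difference of -0.17 (SE 0.13, limma adjusted p = 0.683). Flt4, Pdpn, Prox1 and Lyve1 of this list are also among the lymphatic markers above, and Prox1 is in the slow muscle list too. Cdh5, Tek, Kdr, Robo4 and Cldn5 are also among the endothelial markers. Mbp, Erbb3 and Foxd3 of the SoxE list below are also glial markers. Myl2 and Myl3 of the slow muscle list are also cardiomyocyte markers. Nfatc1 of the slow muscle list and Hapln1 of the cartilage list are also valve interstitial markers. These lists are therefore not separate observations. Among 13 measured SoxE neural crest genes 0 passed, 3 were higher and 1 lower at an unadjusted p under 0.05, with a median of 0.07. Ednrb, the endothelin B receptor, differed by 0.27 (SE 0.06, adjusted p = 0.175). Pmp22, a myelin protein also made by fibroblasts, differed by 0.36 (SE 0.12, adjusted p = 0.322). Mitf, the melanocyte factor that cardiomyocytes also express, differed by -0.34 (SE 0.09, adjusted p = 0.235). The groups did not overlap at Ednrb, Pmp22 or Mitf either. Of 9 SoxC targets and partners 0 passed and 1 was higher at an unadjusted p under 0.05, with a median of 0.02: Stmn1, a microtubule regulator of dividing cells, at 0.40 (SE 0.14, adjusted p = 0.342). Next were Tead2, a Hippo pathway factor (0.11, SE 0.06), and Map2, a neuronal microtubule protein (0.05, SE 0.06).

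For each Sox gene the 3 genes whose values followed it most closely over the 9 hearts were sought among 10697 genes with a single symbol and a mean at or above the median of all probe sets. With so many genes and 9 hearts, high coefficients are found for every member, and they are given as a description. Nearest to Sox9 were Hmox1 (Pearson's r = 0.96, Spearman's rho = 0.90), Dnm1 (0.96, 0.95) and Notch2 (0.95, 0.93). Sox7 was followed by Sncaip (0.97, 0.90), Hic1 (0.97, 0.90) and Osbpl5 (0.97, 0.95). For Sox6 they were Fhl2 (0.98, 0.83), Lzic (0.97, 0.63) and Taldo1 (0.97, 0.69). Sox4 was matched by Hoxb1 (0.95, 0.98), Gna11 (0.92, 0.90) and Pomgnt1 (0.89, 0.87). The nearest to Sox17 were Ubxn4 (0.95, 0.88), Usp32 (0.94, 0.95) and Hnrnpu (0.94, 0.95), and to Sox18 Inka1 (0.95, 0.90), Gimap1 (0.94, 0.74) and 9430015G10Rik (0.93, 0.86). Sox10 had 1 near match, Sfn (0.95, 0.93), followed by Gm34583 (0.85, 0.75) and Trmt10b (0.85, 0.77), and Sox5 had none above 0.89. Sox8 was followed by Tsen54 (0.98, 0.74), Tyro3 (0.97, 0.93) and Gm5535 (0.97, 0.82), and Sox11 by F930017D23Rik (0.99, 0.90), Ube2n (0.94, 0.86) and Tbc1d12 (0.93, 0.85).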

How the data were processed

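Each of the 9 samples was 1 array of 1 heart. The deposited values are log2 expression per probe set, made by the authors; the submitters' processing notes name RMA and Affymetrix Power Tools, without versions. The log2 scale was read from the range (2.18 to 15.0) and the method's name. There is no detection call, and 0 other columns of per-sample values. Groups came from the description label, replicates were numbered in sample order, and the labels speak of 5 and 4 mice. Of 28815 probe sets 21780 had 1 symbol, 1605 several and 5430 none in the platform annotation. Symbols were updated through gene identifiers (21689 matched).

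The test was limma 3.58.1 in R 4.3.3 (lmFit and eBayes) on the 9 arrays, two-sided and with no term but genotype, adjusted over all probe sets at 0.05. Differences are Ezh2-deficient minus wild type, and folds are 2 to that power. The script was tested on simulated data. Precision is limited by the number of arrays (median SE 0.0674). The letters were tested by an interaction term. Alternatives were renormalization, centring, blocks for the title letter, a Y-linked covariate, array weights, leaving out the dimmest 30% of probe sets, another variance prior and left-out arrays. Genes named are the 10 members, Ezh2, the other Sox genes and the up to 3 lowest p of each list. Also named are genes that the lists share with markers, the regulators in the slow muscle list and the 3 most similar genes of each member. Of genes found only in the marker lists, Postn, Vcan, Cthrc1 and Ncam1 are named with values. The members and lists were chosen with earlier results of these data known.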

Additional observations from a re-analysis of the deposited data

Results flagged for a closer look

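Among the 10 Sox genes and Ezh2, each examined in both genotypes (22 groups), 2 groups held a heart far from its fellows. Chance alone marks about 5% of groups where values do not repeat. Sox5 read 6.905 in Ezh2-deficient heart 4, against 7.135 to 7.143 in the other 3, a gap of 0.23 within a range of 0.24. Wild-type heart 1 read 6.933 for the same gene. Sox11 read 5.545 in wild-type heart 2, while the other 4 wild-type hearts all read 5.677. In both genes 1 value is repeated on several arrays, as given above, so the share of 5% does not apply to these groups.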

How the results depend on the processing

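No Sox gene among the 10 passed with all 9 hearts or in any of the 23 alternatives, 3 of which were chosen after seeing the data (hearts of males, hearts of females, and the 3 hearts that stand apart left out). The count at an unadjusted p under 0.05, 2 with all hearts, was 1 to 3 when 1 heart was left out (1 without Ezh2-deficient heart 3). It was 3 with further quantile normalization, centring, the letter as a block, and letter and prime as a block, where Sox6 joined Sox9 and Sox7 (unadjusted p = 0.0427, 0.049, 0.0256 and 0.036). It was 1 with array weights, without wild-type hearts 4 and 5, without the 3 hearts that stand apart, and in hearts of males (Sox9 in each), 1 in hearts of females (Sox8), and 0 within letter e. The count of probe sets past the threshold, 10 with all hearts, was 3 to 15 without 1 heart, 17 with centring, 17 with the letter as a block, 27 with letter and prime, 3 with the Y-linked covariate, 37 with array weights, 20 without dim probe sets (Sox11 was not tested there), 5 without wild-type hearts 4 and 5, 6 without the 3 hearts, 2 in males, 0 in females, and 0 within letter e or x. Sox9, Sox7, Sox8 and Sox6 kept their sign in these 23. Genes near 0 changed sign. Leaving out 1 heart gave -0.11 to 0.11 for Sox17, -0.19 to 0.03 for Sox4, -0.03 to 0.01 for Sox10, -0.01 to 0.08 for Sox11 and -0.09 to 0.02 for Sox5. Sox17 was 0.06 with array weights, 0.03 without wild-type hearts 4 and 5, 0.28 within letter e, 0.06 in males and 0.14 without the 3 hearts. Sox10 was 0.0042 without wild-type hearts 4 and 5, 0.03 within letter e and 0.07 in females; Sox5 was 0.01 without wild-type hearts 4 and 5. Sox4 was 0.10 within letter x and 0.23 in females, Sox11 was -0.03 in males, and Sox18 was -0.02 within letter e, -0.09 in females and -0.004 without the 3 hearts. The median of the cartilage list, 0.05 with all hearts, was -0.03 within letter e, 0.10 within letter x, -0.02 in males, 0.22 in females and -0.02 without the 3 hearts. That of the other Sox genes, 0.03, was 0.11 within letter x and 0.14 in females, and that of the SoxE list, 0.07, was 0.19 in females and 0.00 without the 3 hearts. The cause was not tested. No paired analysis was possible because the labels give no replicate numbers that the groups share. Each of the 10 Sox genes had 1 probe set, so no other could be tried. In the lists, Mitf and Stmn1 had 2. With the mean of all single-symbol probe sets of a gene, the SoxC list median was 0.03 against 0.02. The medians of the other lists stayed the same at the digits given.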
